A study of Drosophila melanogaster with 6 samples.

Results

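The 8 genes described here encode transcription factors of the segment polarity class: en, inv, gsb, gsb-n, slp1, slp2, mid and H15. They were taken by gene name from the deposited result table, in which all 8 were found, out of 17493 gene identifiers counted in the series. RNA was sequenced from whole Drosophila melanogaster embryos aged 10 to 15 hours. The mutant line, stock sggisoD-CI-DS-SFS, gave 3 collections, and the control line, stock sggisoD-DS-SFS, gave 3. Both lines were made by CRISPR-Cas9 and carry the same tags in shaggy (sgg), which encodes the fly glycogen synthase kinase 3: a DsRed fluorescent protein at the N-terminus and StrepII-Flag-StrepII as a second, internal tag. In the mutant line 2 consensus caspase recognition sites of the tagged protein form are changed as well, and embryos were homozygous. No untagged line is analysed here, and each line is 1 stock, so the effect of the caspase sites and any other difference between the stocks cannot be told apart.

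Segment polarity genes keep the boundaries of each embryonic segment once the earlier pair-rule pattern has faded. Engrailed marks the posterior compartment, where it maintains hedgehog, and cells in front of it make Wingless; each signal sustains the other. Shaggy acts inside this loop, since it phosphorylates Armadillo (β-catenin) and Cubitus interruptus. The 8 genes form 4 pairs of related neighbours. Only between mid and H15, which are 45.0 kb apart, do other annotated genes lie, 5 noncoding RNA genes. En and inv encode homeodomain proteins, gsb and gsb-n encode Pax proteins with a paired domain and a homeodomain, slp1 and slp2 encode forkhead proteins, and mid and H15 encode T-box proteins. Several of them are used again later, in neuroblasts and neurons (en, gsb-n, mid) and in the heart (mid, H15).

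The 6 libraries held 12646077 to 19454630 counted reads, and the 8 genes had between 41 and 801 reads in a library. Libraries of 1 line differed by more than sampling noise (chi-square per degree of freedom of at least 8.31), so each was counted as a separate sample. Markers of 9 tissue or cell types were detected in both lines: neurons, glia, neuroblasts, muscle, heart, hemocytes, trachea, hindgut and cuticle-forming epidermis. These are bulk samples, in which fewer cells that express a gene and less RNA per cell cannot be told apart.

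All 8 genes were lower on average in the mutant line, and 4 of them, inv, gsb-n, slp1 and mid, passed the test (edgeR's quasi-likelihood test, Benjamini-Hochberg adjusted p under 0.05). Over all 10526 tested genes 22.3% were called, 8.67% as lower (913 genes) and 13.7% as higher (1437) in the mutant line; with scaling by library size alone 1272 were lower and 1268 higher. The other 4 genes, en, gsb, slp2 and H15, had edgeR adjusted p between 0.0781 and 0.118. Before adjustment all 8 had p under 0.05 in the lower direction, as did 16.1% of all tested genes. The median log2 fold change of the 8 genes, mutant over control, was -0.38, against -0.01 over all tested genes, of which 51.5% were lower. For 7 of the 8 genes every mutant collection lay under every control collection, a separation seen in 20.0% of all tested genes. The exception was slp2. The members were chosen with earlier results of these data known, so these counts describe the 8 genes and are not a test of them as a set.

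**Figure D1:**
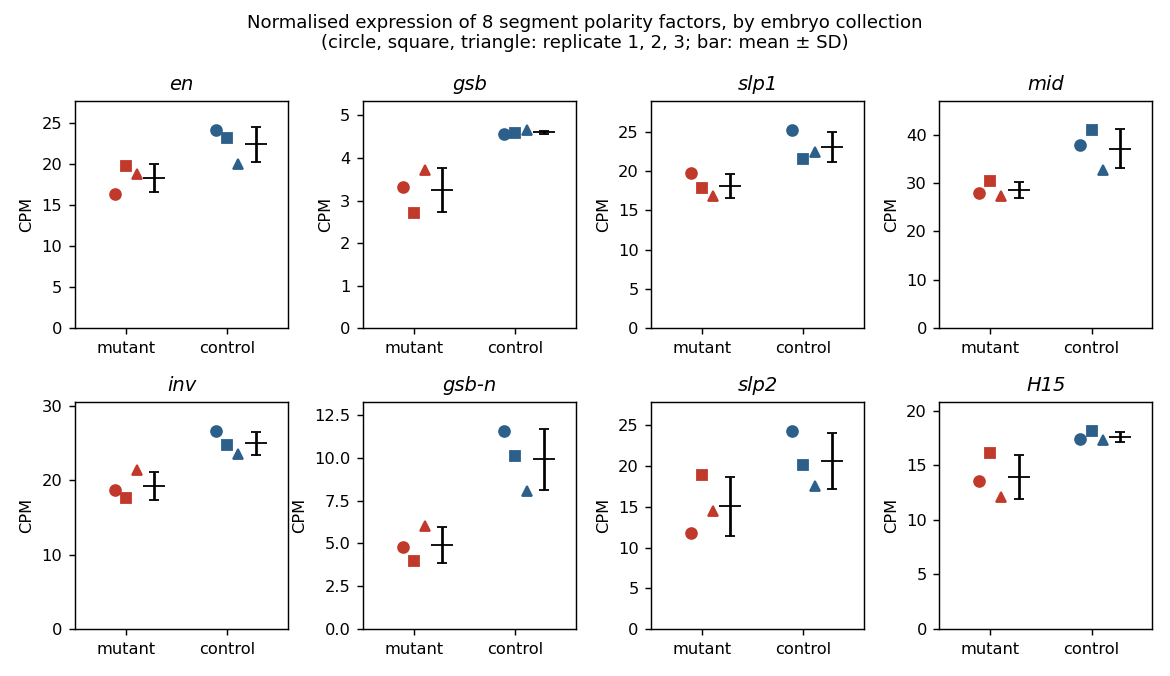
Normalised expression in CPM, counts scaled to a common library total (vertical axes from 0), of the 8 genes in the 3 mutant (left, red) and 3 control (right, blue) collections, with the mean and SD beside the points. The mutant points lie under the control points for each gene except slp2, where mutant replicate 2 at 19.0 CPM is above control replicate 3 at 17.5 CPM.

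The best known member, en, gives the posterior compartment of each segment its identity. It had 247, 301 and 288 reads in mutant libraries 1, 2 and 3, against 307, 454 and 370 in control libraries 1, 2 and 3. Scaled by the trimmed mean of M-values to CPM (counts per library of a common size), this was 16.4, 19.8 and 18.8 CPM in the mutant line, against 24.1, 23.2 and 20.0 CPM in the control line. The lines did not overlap, but the highest mutant and the lowest control collection were only 0.189 CPM apart. The log2 fold change, mutant over control, of -0.29 (standard error, SE, 0.11, 95% interval -0.54 to -0.04) did not pass the adjustment (edgeR adjusted p = 0.0973). The gene (FBgn0000577) lies on the reverse strand of 2R at 11524006 to 11528210, in the Ensembl release 115 annotation of BDGP6 used for all positions.

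Its neighbour inv, which encodes a second homeodomain protein expressed in much the same cells as en, fell in the mutant line. Inv (FBgn0001269, 2R, 11474465 to 11509695, forward strand) had 281, 268 and 328 reads in the mutant libraries, against 338, 484 and 435 in the control libraries. Expression averaged 19.2 ± 1.94 CPM in the mutant line and 24.9 ± 1.54 CPM in the control line (SD, n = 3 each). The log2 fold change was -0.37 (SE 0.10, 95% interval -0.60 to -0.14), a fall of 22.8% with an edgeR adjusted p = 0.0313. The highest mutant value was 21.4 CPM, and the lowest control value was 23.5 CPM. The call was lost in 4 of the 6 fits that left out a library, those without mutant library 1 or 2 or control library 1 or 2, where the edgeR adjusted p ran from 0.0648 to 0.0826.

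The Pax pair held the gene with the largest difference among the 8. Gsb-n (gooseberry-neuro) is expressed mainly in the developing central nervous system, where it follows gsb. It had 72, 60 and 92 reads in mutant libraries 1, 2 and 3, against 147, 198 and 149 in control libraries 1, 2 and 3. That gave 4.78, 3.95 and 5.998 CPM in the mutant line, against 11.6, 10.1 and 8.05 CPM in the control line. Every mutant collection was more than 2 CPM under every control collection. Gsb-n fell by 50.2% in the mutant line, or -1.01 on the log2 scale (SE 0.20, 95% interval -1.47 to -0.54, edgeR adjusted p = 0.0101.) It was the only one of the 8 genes called in each of the 14 alternative fits, with log2 fold changes from -1.19 to -0.87 when a library was left out. Among all tested genes 1.29% had a log2 fold change as low or lower. The gene (FBgn0001147) lies on the reverse strand of 2R at 25040383 to 25052331.

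Gsb (gooseberry), which keeps wingless on in the epidermis and starts gsb-n in the nervous system, had the fewest reads of the 8 genes. They numbered 50, 41 and 57 in the mutant libraries, against 58, 90 and 86 in the control libraries. Expression averaged 3.24 ± 0.513 CPM in the mutant line and 4.60 ± 0.0447 CPM in the control line (SD, n = 3 each). The 3 control collections lay closer together (coefficient of variation 0.972%) than the counting error of so few reads alone would give on average (11.3%), so their SD is no guide to the true spread. The log2 fold change of -0.50 (SE 0.19, 95% interval -0.94 to -0.07) did not pass the adjustment (edgeR adjusted p = 0.0941). Gsb (FBgn0001148) lies at 25061964 to 25064643 on the forward strand of 2R.

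**Figure D2:**
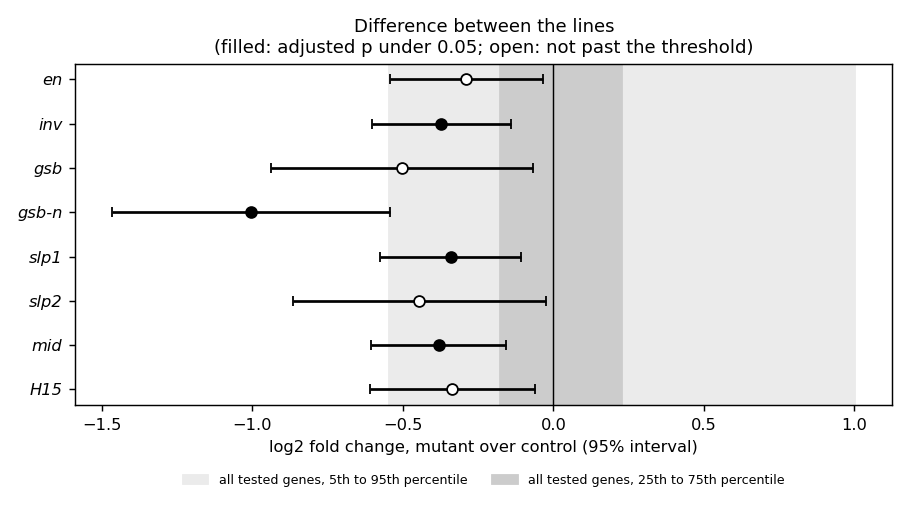
Log2 fold change of each gene, mutant over control, with its 95% interval (horizontal axis), over shaded bands for the spread of all tested genes. The 8 estimates run from -1.01 for gsb-n to -0.29 for en, all under the 25th percentile of all tested genes at -0.18, and gsb-n alone lies under the 5th at -0.55.

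The forkhead genes slp1 and slp2 (sloppy paired) act first as pair-rule genes and then keep wingless on and engrailed off in cells in front of the Engrailed cells. Slp1 (FBgn0003430, 2L, 3825675 to 3827099, forward strand) had 298, 270 and 258 reads in the mutant libraries, against 320, 422 and 414 in the control libraries. This was 19.8, 17.8 and 16.8 CPM in the mutant line, against 25.2, 21.5 and 22.4 CPM in the control line. The lines did not overlap, and slp1 fell by 21.1% in the mutant line, or -0.34 on the log2 scale (SE 0.10, edgeR adjusted p = 0.0442.) This was the weakest of the 4 calls. It was lost in the DESeq2 Wald test (adjusted p = 0.0639) and in each fit that left out a library except that without mutant library 1, where the lost calls had edgeR adjusted p from 0.0597 to 0.125.

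Slp2 (FBgn0004567, 2L, 3836840 to 3839185, forward strand) varied more between collections than slp1 in both lines. It had 177, 288 and 223 reads in the mutant libraries, against 309, 394 and 324 in the control libraries. Expression was 11.7, 19.0 and 14.5 CPM in the mutant line, against 24.3, 20.1 and 17.5 CPM in the control line, and the lines overlapped. Its coefficient of variation was 24.1% in the mutant line and 16.6% in the control line, against 8.34% and 8.22% for slp1, while counting error alone gives 5.09% to 6.60% for these genes. The log2 fold change of -0.45 (SE 0.18, 95% interval -0.87 to -0.03) was larger than that of slp1 but did not pass the adjustment (edgeR adjusted p = 0.118). Without mutant library 2, which had the most slp2 reads of its line, the estimate was -0.64 with an edgeR adjusted p = 0.0386.

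The T-box genes mid (midline) and H15 encode the fly relatives of vertebrate Tbx20. They limit the width of the wingless stripe in the epidermis and act in the heart, and mid also acts in neurons. Mid (FBgn0261963, 2L, 5461639 to 5467610, forward strand) had 421, 461 and 418 reads in the mutant libraries, against 481, 801 and 606 in the control libraries. Expression averaged 28.5 ± 1.62 CPM in the mutant line and 37.2 ± 4.11 CPM in the control line (SD, n = 3 each), without overlap. Mid fell by 23.2% in the mutant line, or -0.38 on the log2 scale (SE 0.10, 95% interval -0.61 to -0.16, edgeR adjusted p = 0.0263.) The call was lost without mutant library 1, mutant library 3 or control library 2, with edgeR adjusted p from 0.0674 to 0.0799.

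H15 (FBgn0016660, 2L, 5404280 to 5416593, forward strand) had 205, 245 and 186 reads in the mutant libraries, against 221, 355 and 321 in the control libraries. Its expression was 13.6, 16.1 and 12.1 CPM in the mutant line, against 17.4, 18.1 and 17.4 CPM in the control line. The control collections lay close together and all above the mutant ones. The log2 fold change of -0.34 (SE 0.12, 95% interval -0.61 to -0.06) did not pass the adjustment (edgeR adjusted p = 0.0781). It passed without mutant library 2, the mutant collection highest in H15, where the estimate was -0.46 with an edgeR adjusted p = 0.0356, and with scaling by library size alone (-0.38, edgeR adjusted p = 0.0453).

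**Figure D3:**
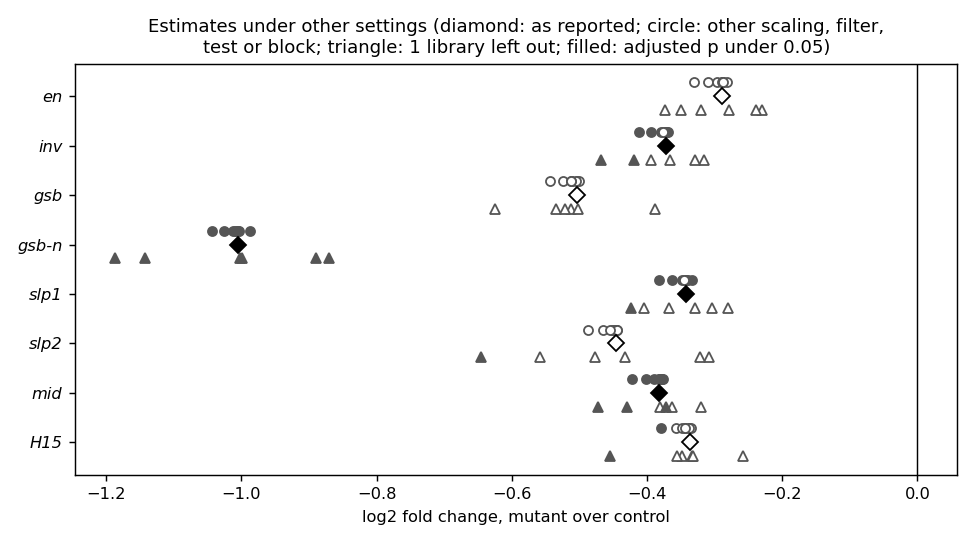
Log2 fold change of each gene, mutant over control, as reported (diamonds), under another scaling, filter, test or block (circles) and with 1 library left out (triangles), filled where the adjusted p was under 0.05. All points lie under 0; those of gsb-n are all filled, and those of en and gsb are all open.

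Within the lines no single collection was low for all 8 genes. Control library 3 had the lowest control value for 6 genes (en, inv, gsb-n, slp2, mid and H15), and control library 1 the highest for 5. In the mutant line the lowest value fell to library 1 for 2 genes, to library 2 for 3 and to library 3 for 3. Mutant library 2 was the highest of its line for en, slp2, mid and H15 and the lowest for inv, gsb and gsb-n.

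Related neighbours were then compared within each library, where their ratio does not depend on scaling between libraries. Gsb took 41.0%, 40.6% and 38.3% of the reads of its pair in mutant libraries 1, 2 and 3, against 28.3%, 31.3% and 36.6% in control libraries 1, 2 and 3. The log2 ratio of gsb to gsb-n was thus 0.50 higher in the mutant line, and the lines did not overlap. The exact two-sided permutation test gave p = 0.1, the smallest that 3 against 3 collections allow, and 0.4 after Benjamini-Hochberg adjustment over the 4 pairs, so a change of balance in this pair is not shown by the test.

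In the other pairs the ratios of the lines overlapped, though with 3 against 3 collections a change of balance could be missed. En took 48.8 ± 3.54% of its pair's reads in the mutant line and 47.3 ± 1.24% in the control line (SD, n = 3 each; exact permutation p = 0.8). Slp1 took 54.9 ± 7.26% in the mutant line and 52.9 ± 2.80% in the control line (SD, n = 3 each; exact permutation p = 0.8). Mid took 67.3 ± 1.95% in the mutant line and 67.7 ± 2.08% in the control line (SD, n = 3 each; exact permutation p = 0.7). The widest range was that of slp1 and slp2 in the mutant line, from 48.4% in library 2 to 62.7% in library 1. The sign of these 3 differences changed when single libraries were left out.

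**Figure D4:**
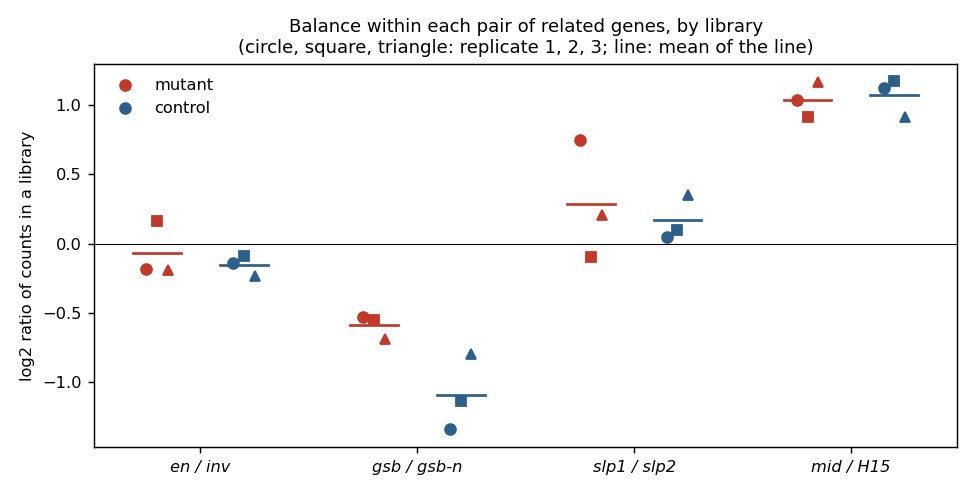
Log2 ratio of the counts of the first to the second gene of each pair (vertical axis) in each mutant (left, red) and control (right, blue) library, with the mean of each line. Only for gsb and gsb-n do the mutant ratios, -0.69 to -0.53, all lie above the control ratios, -1.34 to -0.79.

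To compare levels between genes, CPM were divided by the length of the merged exons in kb. The merged exons cover all annotated transcripts of a gene. Which transcripts were expressed was not measured, so levels per kb may be too low for genes with several, such as inv. Slp1, a gene with 1 exon of 1425 bases, had the highest level, 12.7 ± 1.06 CPM per kb in the mutant line and 16.2 ± 1.33 CPM per kb in the control line (SD, n = 3 each). Mid followed with 9.76 ± 0.555 CPM per kb in the mutant line and 12.7 ± 1.41 CPM per kb in the control line (SD, n = 3 each), under slp1 without overlap in both. En and slp2 came next and overlapped in both lines, en at 6.56 CPM per kb in the mutant line and 8.04 in the control line, slp2 at 6.43 in the mutant line and 8.80 in the control line. H15 was below them at 4.25 CPM per kb in the mutant line and 5.37 in the control line, separate from its neighbours in the order.

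The lowest 3 places went to inv, gsb-n and gsb, and their order differed between the lines. In the mutant line inv had 3.25 CPM per kb and lay above gsb-n at 2.19, which overlapped with gsb at 1.97. In the control line gsb-n had 4.43 CPM per kb and overlapped with inv at 4.21, and both lay above gsb at 2.79. Although en and inv had nearly equal read numbers, the merged exons of inv are longer, 5919 against 2792 bases, so its level per kb was the lower of the pair in both lines.

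**Figure D5:**
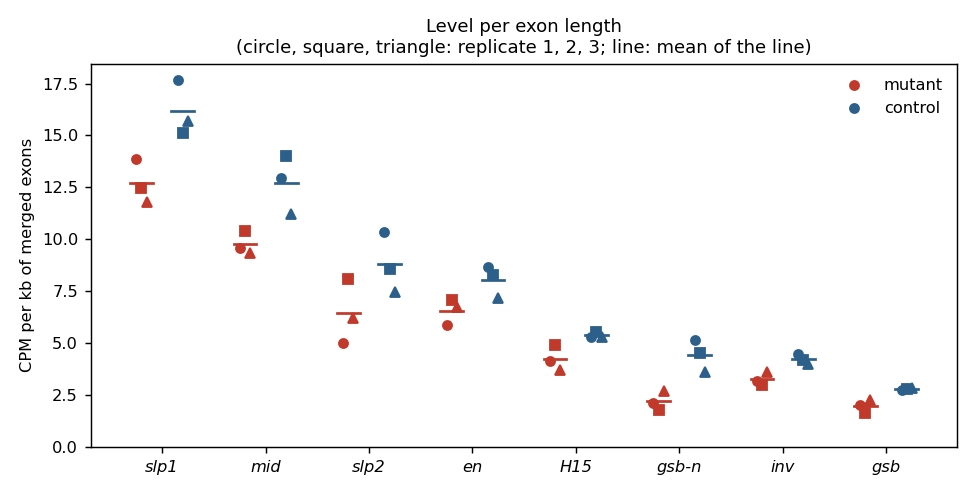
CPM per kb of merged exons (vertical axis from 0) in each mutant (left, red) and control (right, blue) collection, genes ordered by the control mean. Slp1 leads at 12.7 CPM per kb in the mutant line and 16.2 in the control line, and gsb is lowest at 1.97 in the mutant line and 2.79 in the control line.

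Neither of the signals wg and hh, which these factors control, passed the test. Wg, which is kept on by gsb and slp and limited by mid and H15, averaged 22.7 ± 2.83 CPM in the mutant line and 22.8 ± 0.773 CPM in the control line (SD, n = 3 each), and the log2 fold change was -0.01 (SE 0.11, 95% interval -0.25 to 0.23, edgeR adjusted p = 0.953). Hh, a target of En, averaged 8.50 ± 1.53 CPM in the mutant line and 9.90 ± 0.419 CPM in the control line (SD, n = 3 each), and the log2 fold change was -0.22 (SE 0.15, 95% interval -0.57 to 0.13, edgeR adjusted p = 0.345). Of the 16 genes listed for the Wingless and Hedgehog circuit 4 fell (ptc, arm, fz2 and nkd), and the others did not pass the test. Those 16 genes had 14 negative log2 fold changes and a median of -0.17. Over all tested genes the shares were 8.67% called as lower, 13.7% called as higher and 51.5% with a negative value. The DESeq2 Wald test did not call nkd (adjusted p = 0.0746). The cofactors listed for these proteins, exd, hth, gro and CtBP, had 0 calls by edgeR's test, by limma-voom and by DESeq2, 0 unadjusted p under 0.05 in edgeR's test, and a median log2 fold change of -0.09.

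Of the 7 pair-rule genes, which precede the segment polarity genes in the blastoderm and serve in other tissues later, 6 were tested, 3 fell and 1 rose. The shares over all tested genes were 8.67% called as lower and 13.7% as higher. Eve, a homeodomain gene used later in neurons and heart cells, had 4.25, 5.00 and 4.24 CPM in the mutant line, against 7.47, 6.79 and 6.59 CPM in the control line. Its log2 fold change was -0.62 (SE 0.16, edgeR adjusted p = 0.0238). Run fell by 0.46 on the log2 scale (edgeR adjusted p = 0.0101) and opa by 0.36 (0.0439), though opa was not called by the DESeq2 Wald test (adjusted p = 0.0507). The gene h (hairy), a repressor of the bHLH class, rose, with 45.9, 42.5 and 40.0 CPM in the mutant line against 34.2, 31.0 and 27.6 CPM in the control line, a log2 fold change of 0.47 (SE 0.10, edgeR adjusted p = 0.0111).

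Relatives of the 8 factors from the same protein families were counted next. Of all tested genes, 22.3% were called, 8.67% as lower and 13.7% as higher, and 51.5% had a negative log2 fold change. Among 6 other T-box genes 2 fell, Doc3 (log2 fold change -0.64, edgeR adjusted p = 0.0439) and bi (-0.31, 0.0305). Among 13 tested forkhead genes jumu (-0.71, edgeR adjusted p = 0.00306) and croc (-0.38, 0.0405) fell and foxo, which acts under insulin signalling, rose (0.24, 0.0210). The DESeq2 Wald test did not call croc (adjusted p = 0.0776). The 8 other Pax genes all had negative log2 fold changes, from -0.30 to -0.04, and 0 were called by edgeR's test, by limma-voom or by DESeq2, with 0 unadjusted p under 0.05 in edgeR's test. The list medians were -0.24 for T-box, -0.07 for forkhead and -0.17 for Pax genes.

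Among 7 genes of epidermal segment patterning, spi, Ser and lin fell, and all 7 log2 fold changes were negative, with a median of -0.22. For comparison, 8.67% of all tested genes were called as lower and 51.5% had a negative log2 fold change. Spi, the EGF receptor ligand, averaged 112 ± 6.38 CPM in the mutant line and 146 ± 10.5 CPM in the control line (SD, n = 3 each), and the log2 fold change was -0.38 (SE 0.08, edgeR adjusted p = 0.00983). Ser, a Notch ligand, had a log2 fold change of -0.30 (edgeR adjusted p = 0.0297) and lin one of -0.28 (0.0404), which the DESeq2 Wald test did not call (adjusted p = 0.0663). Of 7 tested partners in heart and mesoderm only tup fell (-0.34, edgeR adjusted p = 0.0472), with a list median of -0.18, and limma-voom did not call it (adjusted p = 0.0542).

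Summed markers of neuroblasts, muscle and trachea separated the lines as well, and those of the other 6 cell types overlapped. The calls of single markers stand beside shares of 8.67% lower and 13.7% higher over all tested genes. The 6 neuroblast markers summed to 185 to 199 CPM in the mutant libraries, against 231 to 243 CPM in the control libraries. Of these markers 3 fell (wor, mira and pros). The others were not called, with log2 fold changes of -0.22 for ase, 0.11 for insc and 0.19 for dpn. The 7 muscle markers summed to 27356 to 28076 CPM in the mutant libraries, against 22261 to 23999 CPM in the control libraries, and 5 rose. Mef2 (log2 fold change -0.03, edgeR adjusted p = 0.836) and sls (0.10, 0.402) were not called. The 4 heart markers summed to 86.9 to 93.7 CPM in the mutant libraries and 92.6 to 98.3 CPM in the control libraries, overlapping, with 0 calls by edgeR's test, limma-voom or DESeq2 and 1 unadjusted p under 0.05 in edgeR's test. Of the 7 matched neuron markers 3 rose (Syt1, nSyb and nrv3) and elav fell. Not called were brp (log2 fold change 0.21), futsch (0.12) and fne (-0.15). Of the 8 cuticle-forming markers Ddc rose and ple and kkv fell in edgeR's test. The rest had log2 fold changes of -0.42 for knk, -0.16 for rtv, 0.11 for serp, 0.13 for verm and 0.31 for obst-A. Among these only knk was called by the DESeq2 Wald test (adjusted p = 0.04999). The 2 trachea markers summed to 98.0 to 99.2 CPM in the mutant libraries, against 102 to 114 CPM in the control libraries. They went opposite ways, each without overlap of the lines, and trh made up most of the sum. Trh averaged 86.3 CPM in the mutant line and 97.8 CPM in the control line (log2 fold change -0.18). Btl averaged 12.5 CPM in the mutant line and 10.5 CPM in the control line (0.25). Among the 5 glia markers only gcm fell. The remaining glia markers were not called, with log2 fold changes of -0.21 for repo, -0.21 for loco, 0.02 for nrv2 and 0.10 for moody. The hemocyte, trachea and hindgut markers had 0 calls by edgeR's test and by limma-voom, with 3, 2 and 0 unadjusted p under 0.05 in edgeR's test, and DESeq2 called 1 hemocyte marker. None of the matched markers was at 0 in all libraries. The part of cell composition in the differences of the 8 genes was not tested.

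The authors tested the lines with limma-voom, per the name of their result table, as control over mutant. In the authors' deposited table the same 4 genes, inv, gsb-n, slp1 and mid, had an adjusted p under 0.05, and 8.62% of all genes were lower in the mutant line at that threshold. For gsb-n the authors' deposited table lists 0.99 on the log2 scale, control over mutant, and an adjusted p of 0.0112.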

How the data were processed

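Libraries were made, per the labels, with poly(A) selection and a directional kit (100 ng of RNA, 12 PCR cycles) and sequenced from one end. Without molecular identifiers PCR copies are counted, so counting errors given here cover counting error only. The submitters' processing notes name TopHat2 2.1.1, Bowtie2 2.3.4.0, edgeR 3.14.0 and limma 3.28.21; the counting tool, genome build and use of strand are not given in the sources used here. The authors deposited raw whole-number counts per gene and a table of 10526 genes with those counts, log2 CPM, a log2 fold change, p-values and test scores; the repeated counts equalled the count table for 10526 genes. The test scores of the authors' table were not used.

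Genes were kept by filterByExpr (minimum count 10, minimum total 15), scaled by TMM and tested with the quasi-likelihood test of edgeR 4.0.16 (R 4.3.3), mutant against control, two-sided, adjusted over all 10526 tested genes. All 8 genes passed the filter. The standard error is the log2 fold change divided by the square root of F, and the 95% interval uses the t distribution with the fit's degrees of freedom. No annotated gene overlaps the span of any of the 8. Pair ratios were tested by exact permutation. Alternatives were DESeq2 size factors, upper-quartile and library-size scaling, the Wald test of DESeq2 1.42.0, limma-voom (limma 3.58.1), no filter, a filter of 1 CPM in at least 3 libraries, a replicate block and leaving out each library. The code of the fits was checked on simulated data. The members, gene lists and markers were chosen with earlier results of these data known; named are the 8 members, wg and hh, up to 4 called genes of each list by smallest adjusted p and the 2 genes of most similar profile; genes bordering a pair were added after the values were seen. Replicates are separate embryo collections per the labels.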

Additional observations from a re-analysis of the deposited data

How the results depend on the processing

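All 112 estimates of the 8 genes under the alternatives were negative, and 94 were on the reported side of the threshold. En, gsb and gsb-n kept their side in all 14 alternatives each. With the replicate number as a block 2 genes were called (gsb-n and mid), and inv (-0.38, adjusted p = 0.0628 in edgeR's test) and slp1 (-0.35, 0.0520) were not. Equally numbered collections did not deviate together (correlations of -0.0188 to 0.0102), so the numbers are not taken to pair them. The DESeq2 Wald test also lost slp1 (-0.34), and library size alone added H15 (-0.38) and split the calls over all genes into 1268 higher and 1272 lower, against 1437 and 913 as reported. Leaving out 1 library gave 1 to 4 of the 8 genes called (1 without control library 2) and 1295 to 2146 of all genes. The log2 fold changes then ran from -0.47 to -0.32 for inv, -0.42 to -0.28 for slp1, -0.64 to -0.31 for slp2, -0.47 to -0.32 for mid and -0.46 to -0.26 for H15. Pair log2 ratios, mutant minus control, ran from -0.032 to 0.15 for en over inv, 0.38 to 0.65 for gsb over gsb-n, -0.11 to 0.31 for slp1 over slp2 and -0.11 to 0.032 for mid over H15; reversals without single libraries were en over inv without mutant library 2 (-0.032), slp1 over slp2 without mutant library 1 (-0.11), and mid over H15 without mutant library 2 (0.032) or control library 2 (0.0201). The cause of these changes was not tested. With 41 to 92 reads in most gsb and gsb-n libraries, counting error limits that pair most.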

Other observations

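Of the nearest tested genes on either side of the 4 pairs, only Nplp1 was called. The 3′ end of gsb-n lies 5 bases from the annotated end of Nplp1, a neuropeptide precursor gene on the opposite strand, and Nplp1 rose where gsb-n fell. Nplp1 had 38.8, 38.4 and 32.8 CPM in the mutant line, against 21.7, 24.6 and 28.0 CPM in the control line, 0.56 higher on the log2 scale (SE 0.11, edgeR adjusted p = 0.00981). The sources used here do not say whether counting used strand, so reads at the shared border cannot be told apart. On the other side of this pair gol had a log2 fold change of -0.16 (edgeR adjusted p = 0.296). E(Pc) and tou, which border inv and en, had log2 fold changes of -0.22 and -0.22 (edgeR adjusted p = 0.176 and 0.136), and CG3407, the gene before slp1, one of -0.02 (0.933). Beside H15 nompC had 0.33 (edgeR adjusted p = 0.0949), and beyond mid CG14020 had -0.91 (0.136). These genes were chosen after their values were seen.

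The tested genes most like each member were found by the Euclidean distance between log2 CPM profiles over the 6 libraries, each centred on its mean. They were aos (distance 0.0729) and CG2126 for en, CG3038 (0.0713) and Rpb11 for inv, Sas-4 (0.120) and CG17068 for gsb, and Cyp6d5 (0.210) and fd96Ca for gsb-n. For slp1 they were l(3)72Dp (0.0606) and Upf3, for slp2 CG7231 (0.145) and CG30495, for mid Bin1 (0.137) and Dlish, and for H15 Tsp3A (0.0888) and CG13293. No member was the nearest gene of its own relative. The closest relatives were mid and H15, at a distance of 0.265, where mid ranked 158 among the genes most like H15. H15 ranked 216 for mid. En and inv were 0.322 apart, slp1 and slp2 0.659, and gsb and gsb-n 0.735. Inv ranked 1195 for en and en 754 for inv. Slp2 ranked 5809 for slp1 and slp1 1704 for slp2. Gsb-n ranked 4530 for gsb and gsb 243 for gsb-n. Members of different pairs could lie closer, as did en and mid (0.231) and inv and gsb (0.26).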
